A study of Homo sapiens with 6 samples.

Results

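The cytosolic chaperonin CCT (also called TRiC) and its partner prefoldin are described here by their transcript levels in MV4;11, a human cell line of acute myeloid leukemia with FLT3-ITD and MLL-AF4. The members are the 10 genes with the symbols TCP1, CCT2, CCT3, CCT4, CCT5, CCT6A, CCT7, CCT8, PFDN2 and PFDN4, out of 21857 genes in the count table. They comprise all 8 ring subunits of CCT and 2 of the 6 prefoldin subunits. RNA sequencing compared 3 libraries of cells given 10 µg/ml flavokawain A (FKA, a chalcone of the kava plant) for 48 h with 3 control libraries (Ctrl) of the same line without FKA. All libraries carry the same FLT3-ITD and MLL-AF4 genotype, and a vehicle for the controls is not mentioned in the labels. These put each FKA library in a batch with 1 Ctrl library, but do not say whether replicates were separate cultures, so p-values measure the spread between these libraries, which may be technical.

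CCT is a barrel of stacked rings, each built from 8 different but related subunits. It encloses newly made proteins and folds them with the energy of ATP. Actin and tubulin are its best known clients, and WD-repeat proteins such as the cell cycle activator CDC20 are others. Prefoldin is a jellyfish-shaped hexamer that captures unfolded actin and tubulin and hands them to CCT. It is built from alpha subunits (VBP1 and PFDN5) and beta subunits (PFDN1, PFDN2, PFDN4 and PFDN6).

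Total gene counts lay between 29971171 and 33183376 in the FKA libraries and between 33759185 and 36362421 in the Ctrl libraries. The 7 myeloid markers looked at (PTPRC, CD33, FLT3, SPI1, LYZ, CSF2RA and ITGB2) were all present, with summed levels of 1569.4 to 1589.5 CPM (counts per 1000000 counts, scaled by TMM, edgeR's correction for library composition) in FKA libraries and 1211 to 1455 CPM in Ctrl libraries. Single myeloid markers varied more than this sum. In FKA replicates 1 to 3, CSF2RA was at 10.0, 1.06 and 0.604 CPM and LYZ at 45.7, 52.8 and 118 CPM. In Ctrl replicates 1 to 3, they were at 1.25, 0.922 and 0.922 CPM and at 66.1, 58.8 and 68.6 CPM. Collagen and fibronectin reads also set some libraries apart. The 4 fibroblast markers (COL1A1, COL1A2, COL3A1 and FN1) summed to 0.932, 48.8 and 45.1 CPM in FKA replicates 1 to 3, against 9.85, 8.08 and 0.714 CPM in Ctrl replicates 1 to 3, and COL1A2 and COL3A1 were at 0 in FKA replicate 1. Of the T cell markers 1 of 3 had a row, CD3D, at 0 in all FKA libraries and at 0.0279 to 0.0322 CPM in Ctrl libraries. The 2 of 3 B cell markers with a row summed to 0.155 to 0.547 CPM in FKA and 0.29 to 0.535 CPM in Ctrl libraries. KRT8, KRT18 and EPCAM together reached 12.9 to 18.4 CPM in FKA and 19.1 to 21.3 CPM in Ctrl libraries. Erythroid markers are not analysed here. The part of any of these markers in the results was not tested, beyond the values given without FKA replicates 2 and 3.

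The stretches before 3 of the chaperonin genes are shown as examples that hold a CCAAT box, in capitals here (as CCAAT or, on the other strand, ATTGG). CCT7 fell as well (log2 fold change -0.70), and the 250 bases before its start hold no such box. Any part of the box in the falls was not tested. The stretches shown are RefSeq sequences of build GRCh38.p14, 5′ to 3′ on the strand of the gene, ending at the base before its first listed start. The CCT2 stretch is chr12:69585209-69585458 on the plus strand, the CCT8 stretch chr21:29073649-29073898 on the minus strand, and the TCP1 stretch chr6:159789603-159789811 on the minus strand, which is the whole 209-base gap between the start of TCP1 and that of MRPL18 on the other strand.
CCT2: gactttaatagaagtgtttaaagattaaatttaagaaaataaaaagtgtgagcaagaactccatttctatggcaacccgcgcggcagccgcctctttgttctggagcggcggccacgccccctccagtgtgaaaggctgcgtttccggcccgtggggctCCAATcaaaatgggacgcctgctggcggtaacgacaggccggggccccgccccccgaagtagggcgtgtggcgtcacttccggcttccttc
CCT8: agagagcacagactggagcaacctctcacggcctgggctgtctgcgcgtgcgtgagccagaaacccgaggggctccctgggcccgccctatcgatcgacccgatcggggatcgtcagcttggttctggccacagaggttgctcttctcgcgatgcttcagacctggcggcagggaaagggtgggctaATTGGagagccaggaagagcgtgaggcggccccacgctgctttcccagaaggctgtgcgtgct
TCP1: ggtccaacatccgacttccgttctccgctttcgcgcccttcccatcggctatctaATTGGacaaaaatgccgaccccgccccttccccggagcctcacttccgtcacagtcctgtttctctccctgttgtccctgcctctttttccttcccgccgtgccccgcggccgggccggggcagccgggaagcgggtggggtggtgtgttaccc

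All 10 members were lower with FKA. Each passed the test (edgeR quasi-likelihood test, Benjamini-Hochberg adjusted p under 0.05), where 30.5% of the 13531 genes tested were called lower and 59.8% were called in either direction. The 10 were chosen with earlier results of these data known. Of the 4 prefoldin subunits that are not members, 2 fell, PFDN5 rose and PFDN1 was not called. For the 10 members the following values hold. Their median log2 fold change was -0.76, against 0.01 over all genes tested, and single values ran from -1.02 (PFDN2) to -0.50 (CCT4). The FKA and Ctrl libraries did not overlap in any of the 10 members, while 33.6% of tested genes were lower without overlap. Falls of this size were not rare, since between 13.8% (below PFDN2) and 27.2% (below CCT4) of tested genes had a lower log2 fold change. With library totals as the only scaling the median of all genes was 0.17 and that of the members -0.60, with all 10 still called. That scaling gave 4993 higher and 3282 lower genes over the whole table, against 3959 higher and 4131 lower with TMM. In bulk RNA, fewer cells of a type and less RNA per cell cannot be told apart, and all values are relative to the library.

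**Figure D1:**
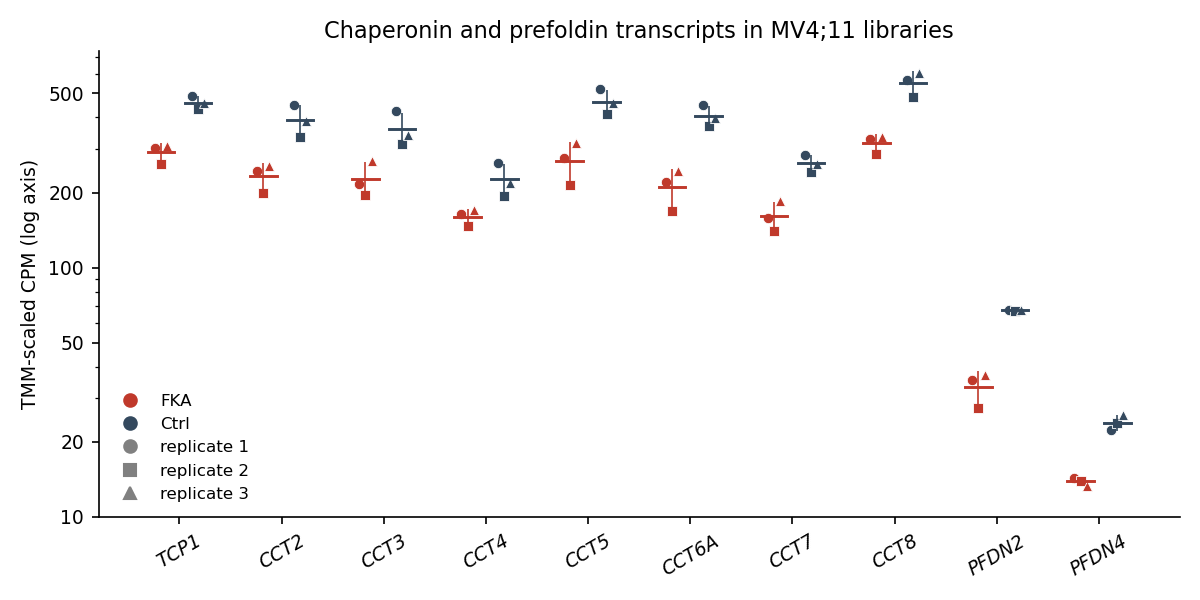
Level of each member in every library, as TMM-scaled CPM on a log axis, with FKA libraries in red left of Ctrl libraries in dark blue, symbols for the replicates, and bars for mean ± SD (n = 3 per group). In all 10 genes the FKA libraries sit below the Ctrl libraries, as in CCT8 (316 against 549 CPM) and PFDN4 (13.9 against 23.9 CPM).

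Summed over the 8 subunits, CCT transcripts made up 0.201%, 0.172% and 0.218% of all counts in FKA replicates 1 to 3, against 0.317%, 0.273% and 0.291% in Ctrl replicates 1 to 3. In TMM-scaled CPM the sum averaged 1867 ± 235 CPM in FKA libraries and 3112 ± 331 CPM in Ctrl libraries (SD, n = 3 each), so that the FKA mean was 60.0% of the Ctrl mean. On the deposited FPKM scale, which divides by library total and gene length, it was 67.3%.

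In yeast, the subunits on one side of the ring bind ATP tightly and those on the other side weakly. The tight side holds the counterparts of TCP1 (CCT alpha), CCT2 (beta), CCT4 (delta) and CCT5 (epsilon). TCP1 had 301, 261 and 307 CPM in FKA replicates 1 to 3, against 486, 432 and 459 CPM in Ctrl replicates 1 to 3. The FKA libraries were all below the lowest Ctrl library, and the log2 fold change was -0.66 (SE 0.101, edgeR adjusted p = 0.000531). CCT2 was at 244, 199 and 255 CPM in FKA libraries and 449, 334 and 387 CPM in Ctrl libraries. Again no FKA library reached the Ctrl range, and the fold change was -0.74 (SE 0.137, edgeR adjusted p = 0.00152). CCT5 stood at 276, 215 and 315 CPM in FKA libraries and 519, 413 and 457 CPM in Ctrl libraries. FKA replicate 3 came closest to the controls, and the fold change of CCT5 was -0.78 (SE 0.15, edgeR adjusted p = 0.00184).

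CCT4 had the least change of the 10. Its level was 163, 147 and 170 CPM in FKA replicates 1 to 3, against 264, 194 and 219 CPM in Ctrl replicates 1 to 3. The log2 fold change was -0.50 (SE 0.122, edgeR adjusted p = 0.00705), which leaves 70.9% of the Ctrl level. CCT4 kept its call when any 1 library was left out, but was the only member to lose it in any setting. That setting left out FKA replicates 2 and 3, the libraries with the most fibroblast marker reads, and so kept 1 FKA library. The fold change of CCT4 there was -0.48, close to the -0.50 of all libraries.

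On the weakly binding side, CCT6A (zeta) fell most, to 52.2% of the Ctrl level. It had 221, 169 and 244 CPM in FKA replicates 1 to 3, against 448, 369 and 397 CPM in Ctrl replicates 1 to 3. The highest FKA library lay well under the lowest Ctrl library, at a log2 fold change of -0.94 (edgeR adjusted p = 0.000537, SE 0.143). CCT8 (theta), the most abundant member by FPKM, was at 329, 287 and 334 CPM in FKA libraries and 566, 481 and 602 CPM in Ctrl libraries. Its fold change was -0.80 (SE 0.115, edgeR adjusted p = 0.000403) and nearly the same in each batch (-0.78, -0.75 and -0.85).

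CCT3 (gamma) and CCT7 (eta), also of the weakly binding side, fell by 0.66 (SE 0.151, edgeR adjusted p = 0.00483) and 0.70 (SE 0.118, edgeR adjusted p = 0.000896) in log2 units. CCT3 had 216, 196 and 269 CPM in FKA libraries, against 423, 312 and 339 CPM in Ctrl libraries. Its batches spread the most of all members, with differences of -0.97, -0.67 and -0.34 in batches 1 to 3. CCT7 had 158, 141 and 184 CPM in FKA libraries, against 283, 241 and 261 CPM in Ctrl libraries, without overlap.

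The prefoldin members are beta subunits. PFDN2, which also serves in the URI prefoldin-like complex, had the largest fall of the 10. Its level was 35.5, 27.4 and 37.0 CPM in FKA replicates 1 to 3, against 67.9, 67.0 and 67.8 CPM in Ctrl replicates 1 to 3. The controls were almost alike, the FKA libraries were near 49.3% of them, and the log2 fold change was -1.02 (SE 0.12, edgeR adjusted p = 0.000136). PFDN4 had 14.4, 14.0 and 13.3 CPM in FKA libraries and 22.3, 23.8 and 25.7 CPM in Ctrl libraries. It was the least abundant member by FPKM, and its fold change of -0.78 (SE 0.116, edgeR adjusted p = 0.000451) rested on 448 to 463 counts in FKA and 692 to 863 counts in Ctrl libraries.

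**Figure D2:**
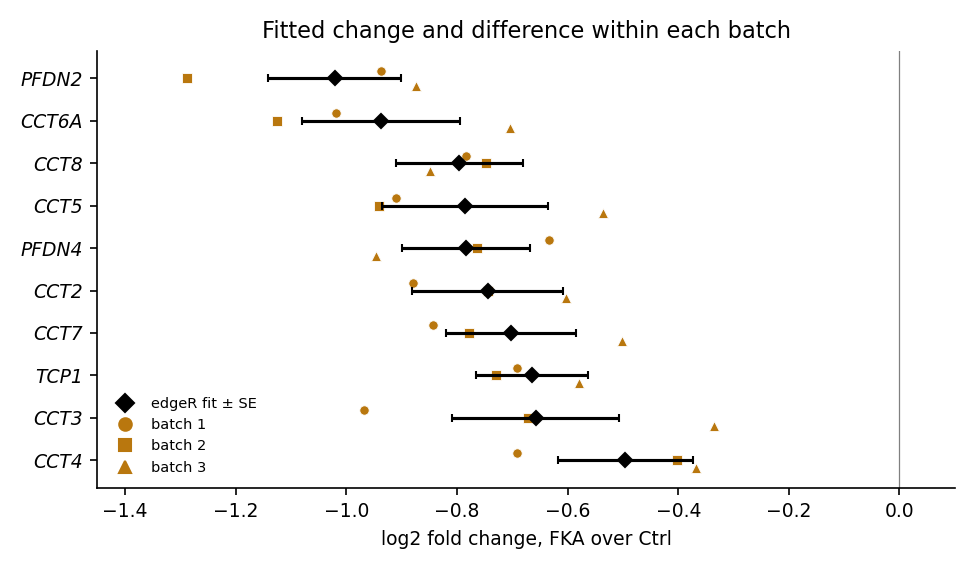
Log2 fold change of each member, FKA over Ctrl: black diamonds are the edgeR fit with its standard error, and ochre symbols the difference of log2 CPM between the FKA and the Ctrl library of each batch. All values lie below 0, from -1.29 (PFDN2, batch 2) to -0.34 (CCT3, batch 3).

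Within a group the members followed the library. FKA replicate 2 was the lowest of its group in 9 of the 10 members and FKA replicate 3 the highest in 9, PFDN4 being the exception to both. Ctrl replicate 2 was the lowest of its group in 9 members and Ctrl replicate 1 the highest in 8.

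How far the subunits kept their proportions was read from FPKM, which divides by 1 length per gene. Levels of different genes compare only as far as these lengths hold. The length worked out from FPKM was 3798 bases for CCT5 and 2035 for CCT7, for example. In both groups CCT8 came first, with 155 ± 11.3 FPKM in FKA and 240 ± 20.5 FPKM in Ctrl libraries (SD, n = 3 each), and did not overlap the next gene, TCP1 (130 ± 10.1 FPKM in FKA and 184 ± 5.14 FPKM in Ctrl). TCP1, CCT3 and CCT2 followed in FKA libraries, and TCP1, CCT2 and CCT3 in Ctrl libraries, with neighbours in each order overlapping. The lower part of the order was CCT6A, CCT7, CCT5 and CCT4 in FKA libraries, where each overlapped the next. Overlap is judged on the ranges over the 3 libraries, so genes may still keep their order within each library. CCT7 lay above CCT5 in every FKA library (81.8, 73.8 and 94.9 against 76.6, 60.4 and 86.9 FPKM). By contrast, CCT6A and CCT7, and CCT5 and CCT4, changed order in FKA replicate 2. In Ctrl libraries CCT6A did not overlap CCT7, and CCT4 was at 89.0 ± 11.1 FPKM, overlapping PFDN2 at 97.1 ± 2.71 FPKM. In FKA libraries PFDN2 was at 53.4 ± 7.78 FPKM and lay below CCT4 (70.7 ± 4.52 FPKM) without overlap. PFDN4 was last, at 8.76 ± 0.376 FPKM in FKA and 13.5 ± 1.11 FPKM in Ctrl libraries.

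**Figure D3:**
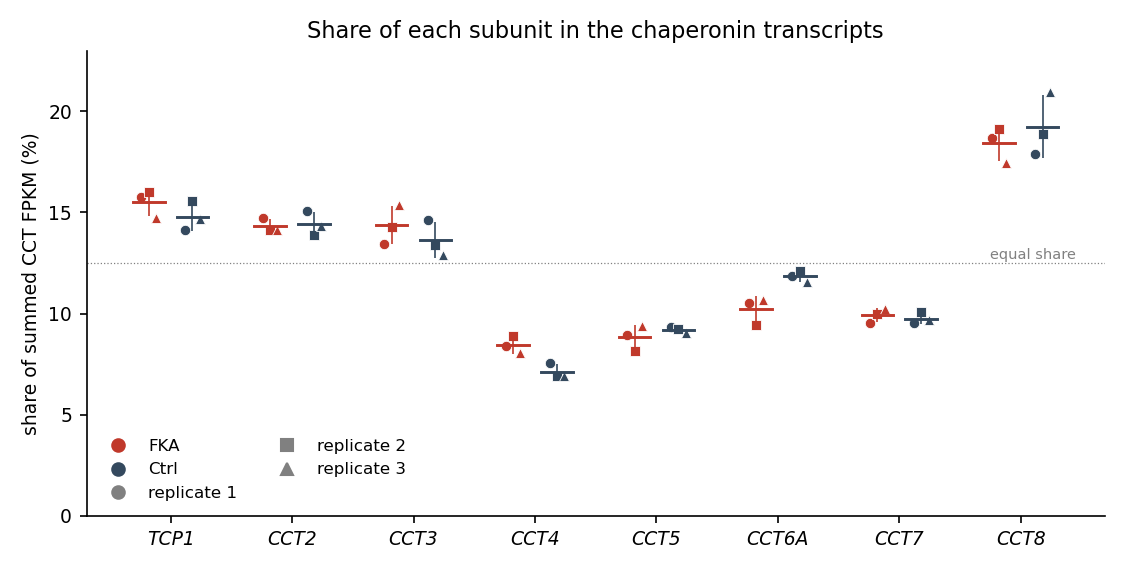
Share of each subunit in the summed FPKM of the 8 CCT subunits in every library, in percent, with FKA in red left of Ctrl in dark blue, bars for mean ± SD (n = 3 per group) and a dotted line at the equal share of 12.5%. The groups overlap for 6 subunits and are apart for CCT4 (8.43% against 7.11%) and CCT6A (10.2% against 11.8%).

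Of the summed chaperonin FPKM, CCT4 took 8.39%, 8.88% and 8.03% in FKA replicates 1 to 3, against 7.54%, 6.90% and 6.90% in Ctrl replicates 1 to 3. CCT6A took 10.5%, 9.46% and 10.7% in FKA libraries, against 11.9%, 12.1% and 11.6% in Ctrl libraries. These are the subunits with the least and the most change, and the FKA and Ctrl shares of each did not overlap. The other 6 shares overlapped between the groups, with mean differences (FKA minus Ctrl) between -0.807 percentage points for CCT8 and 0.726 for CCT3. The ratio of the highest to the lowest of the 8 subunits was 2.25 ± 0.0862 in FKA and 2.71 ± 0.331 in Ctrl libraries (SD, n = 3 each). No test was made of the shares, since they are computed over the members.

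The prefoldin hexamer did not move as one. Of its 6 subunits, 4 fell with FKA, 1 rose and 1 was not called. Besides PFDN2 and PFDN4, the beta subunit PFDN6 fell by 0.72 on the log2 scale (edgeR adjusted p = 0.000416, SE 0.104), at 42.9, 37.2 and 43.9 CPM in FKA and 74.5, 64.9 and 64.5 CPM in Ctrl libraries. The alpha subunit VBP1, first found through its binding to the VHL protein, fell as well (-0.66, SE 0.0856, edgeR adjusted p = 0.000217), with 61.4, 55.7 and 62.0 CPM in FKA libraries, against 89.9, 95.8 and 98.0 CPM in Ctrl libraries. The other alpha subunit, PFDN5, also known as the MYC-binding protein MM-1, rose. Its level was 195, 201 and 198 CPM in FKA replicates 1 to 3, against 136, 111 and 118 CPM in Ctrl replicates 1 to 3 (log2 fold change 0.70, SE 0.0958, edgeR adjusted p = 0.000295, where 29.3% of genes tested were called higher). Every FKA library lay above every Ctrl library, and the fold change of PFDN5 lay between 0.64 and 0.87 in all settings tried.

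PFDN1, a beta subunit, was not called at 0.16 (SE 0.0992, edgeR adjusted p = 0.183). It had 42.5, 37.3 and 37.8 CPM in FKA libraries and 33.5, 34.6 and 36.9 CPM in Ctrl libraries, without overlap. With library totals as the only scaling its value was 0.32 (edgeR adjusted p = 0.0226). With limma on log2(FPKM + 1) it was 0.305 (limma adjusted p = 0.0150), so the call of PFDN1 rests on the scaling.

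The prefoldin subunits stood in other proportions. The ratio of PFDN5 to VBP1, the alpha subunits, was 10.9, 12.4 and 11.0 on the FPKM scale in FKA replicates 1 to 3, against 5.19, 3.97 and 4.14 in Ctrl replicates 1 to 3. The size of this ratio rests on the gene lengths behind FPKM (596 bases for PFDN5 and 2044 for VBP1), which are the same in both groups. Among the 4 beta subunits, PFDN1 made up 14.9 ± 1.24% of the summed FPKM in FKA and 7.87 ± 0.558% in Ctrl libraries, and PFDN2 made up 37.4 ± 2.26% in FKA and 45.3 ± 1.09% in Ctrl libraries (SD, n = 3 each). The groups were apart for both of these and overlapped for PFDN4 and PFDN6. Summed over all 6 subunits, prefoldin FPKM was 524 ± 7.21 in FKA and 451 ± 13.7 in Ctrl libraries, a sum in which PFDN5 is the largest term. FPKM does not include the TMM correction. For the CCT sum, the FKA mean was 67.3% of the Ctrl mean on the FPKM scale and 60.0% in TMM-scaled CPM. The prefoldin sum was not computed with TMM, so these FPKM values do not show that prefoldin transcripts rose in total.

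**Figure D4:**
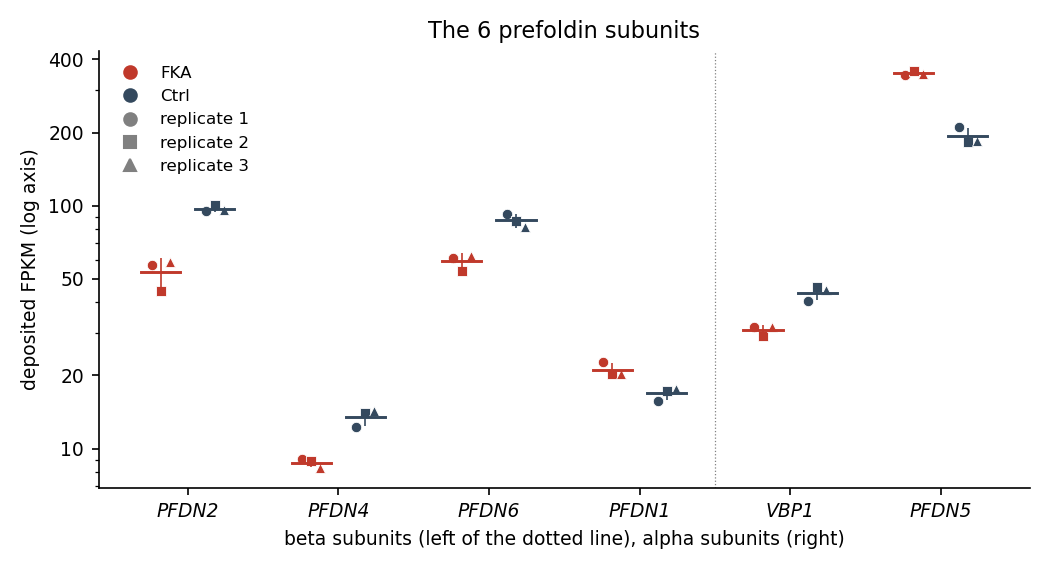
Deposited FPKM of the 6 prefoldin subunits on a log axis, beta subunits left and alpha subunits right of the dotted line, with FKA in red left of Ctrl in dark blue and bars for mean ± SD (n = 3 per group). PFDN2, PFDN4, PFDN6 and VBP1 are lower in all FKA libraries, and PFDN5 and PFDN1 are higher in all. PFDN1 did not pass the edgeR test on TMM-scaled counts but was called by limma on FPKM.

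Further genes of the folding pathway were counted on lists put together by role. Over 9 such lists with 69 genes, 65 were tested, of which 13 rose, 32 fell and 20 were not called, with a median log2 fold change of -0.31. Over all genes tested, 29.3% were called higher and 30.5% lower, with a median of 0.01. Without FKA replicates 2 and 3, which leaves 1 FKA library, 7 of the list genes rose and 21 fell, while over all genes the calls dropped to 2059 higher and 2596 lower. Among 4 tested relatives of the ring subunits, none was called lower and 1 rose: BBS12, a chaperonin-like protein of the BBSome assembly pathway, by 1.04 (edgeR adjusted p = 0.00186, and 0.0544 without FKA replicates 2 and 3). Its partners BBS10 (0.28) and MKKS (-0.12) and the CCT6A paralog CCT6B (-0.43) were not called, and BBS10 passed without Ctrl replicate 2 (0.44, edgeR adjusted p = 0.0405). CCT8L2 is not analysed here.

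The phosducin-like cofactors, which bind CCT together with its clients, went both ways. PDCL3 fell by 0.93 (edgeR adjusted p = 0.00405), PDCL rose by 0.42 (edgeR adjusted p = 0.0118, and 0.137 without FKA replicates 2 and 3), and TXNDC9 was at -0.12 (edgeR adjusted p = 0.339). PDCL2 is not analysed here.

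The list of the prefoldin-like URI complex, which also contains PFDN2, and of R2TP held 5 genes that fell and 4 that were not called, out of 9. The ATPase RUVBL1 had 26.3, 19.3 and 26.6 CPM in FKA libraries, against 72.8, 68.3 and 69.0 CPM in Ctrl libraries. That is 34.4% of the Ctrl level (log2 fold change -1.54, SE 0.131, edgeR adjusted p = 2.62e-05), the largest fall in this list. Its partner ATPase RUVBL2 fell by 0.64, the WD-repeat subunit DNAAF10 by 0.72, the scaffold URI1 by 0.55 and the polymerase subunit POLR2E by 0.44. Without FKA replicates 2 and 3, 2 genes of this list were called lower, and RUVBL2 (edgeR adjusted p = 0.0507), DNAAF10 (0.0734) and URI1 (0.0796) were not. The prefoldin-like subunits UXT (0.05) and PDRG1 (-0.06) were not called. RPAP3 was at 0.30 (edgeR adjusted p = 0.0659) and passed once the batch was included (blocked edgeR adjusted p = 0.0229). The number of genes of this list called higher depended on the setting. It was 0 in the test reported here, 1 with the block, with upper-quartile factors, with the 1 CPM filter (reached in 3 libraries) and without Ctrl replicate 1, 2 with library totals only, and 3 in each limma fit on FPKM.

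Of 14 tested genes of actins, tubulins and actin-related proteins, 8 fell, 3 rose and 3 were not called. Actins and tubulins are the best known clients. The actin-related genes are ACTR2, which rose, and ACTR3 and ACTL6A, which fell. The alpha tubulin TUBA1B was at 109, 105 and 140 CPM in FKA libraries, against 274, 351 and 490 CPM in Ctrl libraries (log2 fold change -1.66, SE 0.207, edgeR adjusted p = 0.000182). TUBB (-1.31), TUBA1C (-1.16) and the cytoplasmic actin ACTG1 (-0.83) fell as well. The genes that rose were TUBA1A (0.72, edgeR adjusted p = 0.0197, but 0.0761 without FKA replicate 3), TUBA4A (0.70) and ACTR2 of the actin-branching complex (0.35). ACTR2 lost its call without FKA replicate 1 (edgeR adjusted p = 0.071), and TUBA4A, whose groups overlap, lost it without Ctrl replicate 1 (edgeR adjusted p = 0.075), Ctrl replicate 3 (0.0628), FKA replicate 2 (0.111) or FKA replicate 3 (0.0892). Without FKA replicate 3, 1 gene of the list rose. Without both FKA replicates 2 and 3, none of these 3 was called, and TUBA4A was at 0.20. Tubulins and actins have similar sequences, so reads may be divided among copies.

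Tubulin folding cofactors, which take tubulin over from CCT, also split, with 3 of 6 lower, 2 higher and TBCB (-0.17) not called. The GTPase ARL2 fell by 1.73 (1.95 CPM in FKA and 6.48 CPM in Ctrl libraries), TBCA by 0.96 and TBCE by 0.60, while TBCC rose by 0.74 and TBCD by 0.55 (edgeR adjusted p between 2.74e-05 for TBCA and 0.00155 for TBCD).

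Of 13 other clients, 7 fell, 3 rose and 3 were not called. Among all genes tested, 30.5% were called lower and 29.3% higher. Whether any of these falls goes with being a client was not tested. The mitotic kinase PLK1 had 4.60, 5.97 and 3.88 CPM in FKA libraries and 23.4, 83.8 and 83.2 CPM in Ctrl libraries (log2 fold change -3.72, SE 0.457, edgeR adjusted p = 0.000167). The WD-repeat activator CDC20 had 5.13, 5.69 and 5.44 CPM in FKA libraries and 37.2, 82.8 and 76.3 CPM in Ctrl libraries (-3.59, SE 0.286, edgeR adjusted p = 1.8e-05). In both genes Ctrl replicate 1 was the lowest control and still far above the FKA libraries. Cyclin E1 (CCNE1) fell by 1.91 and the mTOR subunit MLST8 by 1.62. The 3 that rose were STAT3 (0.97), the tumour suppressor VHL (0.63) and HDAC3 (0.26). Without FKA replicates 2 and 3, 4 clients of this list were called lower. HDAC3 lost its call without Ctrl replicate 2 (edgeR adjusted p = 0.0663), without FKA replicate 2 (0.0619), without FKA replicate 3 (0.0782), with no filter (0.0921), and without FKA replicates 2 and 3 together (0.366).

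Other chaperones were counted alongside. Both genes of the mitochondrial chaperonin fell, HSPD1 by 0.95 (256 CPM in FKA and 496 CPM in Ctrl libraries, edgeR adjusted p = 0.00284) and its cap HSPE1 by 1.01 (edgeR adjusted p = 0.00921, and 0.0522 without FKA replicates 2 and 3). Of 10 genes of the HSP70 and HSP90 systems and their heat shock factors, 4 fell, 2 rose and 4 were not called. HSP90AB1 fell by 0.89 (edgeR adjusted p = 0.00937, and 0.0641 without FKA replicates 2 and 3, where 2 genes of the list were called lower), HSPH1 by 0.56, the transcription factor HSF1 by 0.54 and HSPA4 by 0.31. The co-chaperones DNAJA1 and DNAJB1 rose, by 0.99 and 0.49. STIP1, which links HSP70 and HSP90, was called lower in the blocked fit (edgeR adjusted p = 0.0418) but not without the block (-0.25, edgeR adjusted p = 0.071). HSPA8 (-0.08) and HSP90AA1 (0.08), the most abundant by FPKM of those not called, were at 393 and 586 CPM in FKA libraries, against 416 and 556 CPM in Ctrl libraries. HSPA8 varied widely within groups (SE 0.351), so its close means do not show that it was unchanged. It had 332, 245 and 604 CPM in FKA replicates 1 to 3, against 603, 276 and 370 CPM in Ctrl replicates 1 to 3.

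**Figure D5:**
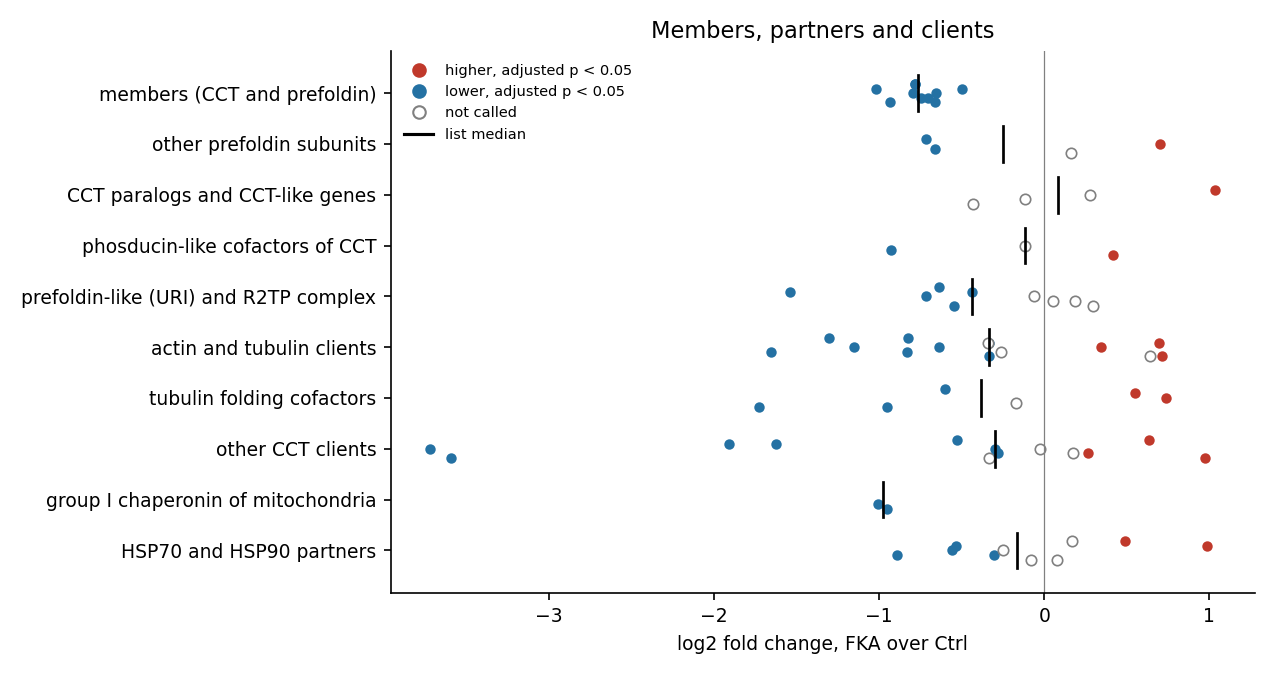
Log2 fold change (FKA over Ctrl) of the members and of each tested gene of the 9 partner and client lists, 1 point per gene, red for higher and blue for lower at an edgeR adjusted p under 0.05, open for not called, with a black bar at the list median. The members lie between -1.02 and -0.50, and the other lists, apart from the mitochondrial chaperonin, hold genes on both sides of 0.

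The genes most like the members were sought by the root mean square distance between the centred log2 CPM of a gene and the mean of the 10 members over the 6 libraries. The nearest were COA4 (0.0277 log2 units, log2 fold change -0.77), CNBP (0.0345, -0.75), RNPS1 (0.0358, -0.72), OSBPL1A (0.0389, -0.70) and PDCD5 (0.0406, -0.82). The closest member to its own mean was CCT7 (0.0455), which would take rank 8 among the genes outside the members, and the farthest was PFDN4 (0.16), at rank 710 by the same count. With 6 libraries in 2 groups, the difference between the groups enters this distance.

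The position and sequence of the genes were read from RefSeq. Of the 10 members, 8 matched the promoter table, and they lie on 7 chromosomes. TCP1 starts 210 bases from MRPL18, a mitochondrial ribosomal protein gene read the other way. MRPL18 had 67.2, 58.9 and 75.3 CPM in FKA libraries and 116, 132 and 129 CPM in Ctrl libraries, and fell by 0.90 on the log2 scale (edgeR adjusted p = 0.000142, SE 0.108). CCT4 starts 69 bases from COMMD1, which was not called (0.25, edgeR adjusted p = 0.205) but passed with library totals (0.42, edgeR adjusted p = 0.0486), at 8.23 CPM in FKA and 6.91 CPM in Ctrl libraries. The RefSeq extents of CCT4 and COMMD1 overlap by 281 bases. The labels do not say whether strand was used in counting, so reads in that stretch cannot be told apart. The partner of CCT3, TSACC, overlaps it by 979 bases and had at most 9 counts in a library, too few to be tested. PFDN4 starts 46 bases from LOC124904937, which is not analysed here.

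In the 300-base windows (250 bases before to 50 after the start, both strands), the CCAAT box shown above was found in 5 of the 8 members, CCT2, CCT3, CCT8, PFDN4 and TCP1, where 35.7% of 27305 promoters hold it. A heat shock element core (GAANNTTC or TTCNNGAA) was found in CCT4 and TCP1 (13.7% of promoters), and an ETS motif (CCGGAAG) in CCT2 (10.7%). The core of TCP1, at position -231, lies beyond the 209-base gap to MRPL18, and that of CCT4 lies after the start (position 39). The CCAAT box of PFDN4 (position -194) lies beyond the 45 bases before its start that are in no RefSeq gene. Directly before the listed starts of CCT3, CCT4 and CCT5 there are no such bases. The E-box CACGTG (7.43%) and the NRF1 motif (1.36%) were found in none of the 8, which says only that these letters are not in these windows. The motifs do not overlap one another in these members, and each match is a description of the letters.

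Copies of several members exist in the genome, which matters for how reads are assigned. In GENCODE v29, 8.59% of the 50-base words of the CCT8 transcript recur in CCT8P1. For TCP1 the share was 7.8% (TCP1P1, TCP1P3 and AC008817.1), for CCT6A 6.67% (4 pseudogenes) and for CCT5 2.73% (CCT5P1 and CCT5P2). No such word was shared for CCT2, CCT3, CCT4, CCT7, PFDN2 or PFDN4, nor between CCT6A and CCT6B. None of these copies is among the genes counted. Reads from those stretches may be divided among the copies, and the values of these 4 genes are uncertain to that extent.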

How the data were processed

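The files deposited by the authors hold raw read counts (whole numbers) and FPKM for 21857 genes in 6 libraries, whose names give group and replicate. Both build names in the submitters' processing notes, GRCm38 and mm10, are of the mouse genome, although 94.5% of the symbols match human RefSeq genes. The build used is not settled, so no coordinates are tied to the counts. For aligner and counter, the sources used here name none. Each deposited FPKM value equalled the count divided by the column total and 1 length per gene (largest relative deviation 6.9e-07), so both tables hold the same measurements.

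The tests ran in edgeR 4.0.16 under R 4.3.3, with filterByExpr (13531 genes kept, at least 99.9% of counts in each library), TMM, and the quasi-likelihood test (FKA over Ctrl), adjusted by Benjamini-Hochberg over the 13531 genes. The filter kept all 10 members. The biological coefficient of variation was 15.4%. The edgeR steps were tested on simulated data in which few genes changed, so that test does not bear on the scaling used here. No replicate pair was alike within sampling noise, the chi-square over its degrees of freedom being 22.8 to 69.6.

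By the labels, a batch number pairs each FKA library with 1 Ctrl library. The correlation of their deviations from the group means was 0.13, 0.46 and -0.09 in batches 1 to 3. The main model has no batch term, and a second model has the batch as a block.

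The members and lists were chosen with earlier results of these data known. All members were named, as were all genes of lists of up to 5, the 4 called genes with the largest change of longer lists and those called in the rarer direction, the 5 genes nearest in pattern (log2 of CPM plus 0.01), and genes starting within 1000 bases head to head. Some further genes of the longer lists (POLR2E, UXT, PDRG1, RPAP3, TBCB, STIP1, HSPA8, HSP90AA1 and HSPA4) were named after their values were seen. DESeq2 1.42.0, limma 3.58.1 on log2(FPKM + 1) and log2(FPKM + 0.1), other scalings and filters, and leaving out libraries were alternatives. Promoter windows start from the first start listed for a gene.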

Additional observations from a re-analysis of the deposited data

How the results depend on the processing

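All 10 members stayed lower in every setting tried, and all were called, with 1 exception. That exception was CCT4 without FKA replicates 2 and 3, at -0.48 (edgeR adjusted p = 0.0951). In that setting, which leaves 1 FKA library assumed to vary like the others, 2059 genes were called higher and 2596 lower over all genes, and 7 higher and 21 lower over the partner and client lists. The median of the members was -0.60 with library totals only, -0.57 with limma on log2(FPKM + 1), with or without a mean FPKM of at least 1, and -0.60 with limma on log2(FPKM + 0.1). Leaving out 1 library in turn gave 10 members called lower each time and a median between -0.82 and -0.65. MKKS and TXNDC9, not called in any setting, changed sign in some fits: with library totals MKKS was at 0.0411 and TXNDC9 at 0.04, with limma on log2(FPKM + 1), filtered or not, at 0.0386 and 0.039, and with limma on log2(FPKM + 0.1) at 0.0424 and 0.0413. With the replicate block all 10 members were called lower (median -0.76), and apart from RPAP3 and STIP1 it changed no call of a partner or client gene. In the list of the URI complex and R2TP, where the test as reported called none higher, 1 to 3 were called higher with upper-quartile factors, library totals, the 1 CPM filter, the block, limma or without Ctrl replicate 1. In the 250 bases before the start only, the heat shock core was found in 1 member.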
